A study of Mus musculus with 4 samples.

Results

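Opn1sw and Opn1mw, the genes of the 2 cone opsins of the mouse, were followed over position, tissue section and cell type in a spatial map of retinal ganglion cells (RGCs), whose axons form the optic nerve. They are 2 of the 300 genes of a custom Xenium panel. They were chosen by name and not ranked by their values, though earlier results of these data were known. Xenium images and decodes individual transcripts, as puncta, in tissue, and the deposited table gives the puncta of each gene inside each cell outline. All retinas came from untreated wild-type C57BL/6 mice with free access to food and water and were cut parallel to their surface, that is en face, at 20 µm. The ages of the mice are not given in the sources used here. The table holds 131379 outlines from 41 sections of 5 retinas, all of class RGC and each given 1 of 45 types by the authors. The 4 deposited samples are pairs of slides that no label ties to the 8 slides of the table, so the retina was taken as the replicate (n = 5). Whether each retina is from its own animal is not stated, so the p-values cover the spread among these retinas alone, which may be technical.

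Cones, the daylight photoreceptors, carry a light-sensitive opsin in their outer segments. Opn1sw encodes the short-wavelength opsin and Opn1mw the medium-wavelength opsin. In the mouse retina many cones make both in a mixture that changes along the dorsal to ventral axis, with Opn1sw prevailing ventrally and Opn1mw dorsally, and thyroid hormone and retinoid receptors act on this pattern. Photoreceptor bodies lie in the outer nuclear layer, across the retina from the ganglion cell layer, and rods are far more numerous there than cones. Neither opsin is a known product of RGCs. The authors scaled each position to a circle. The labels give no anatomical direction for its X and Y axes and do not say how the retinas were oriented, so no side is called dorsal or ventral here.

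The 250 bases before the annotated start of each gene, from RefSeq on build GRCm38.p6, are shown because the 2 genes were read over the same tissue and the motifs in their windows differ. The Opn1sw window lies on the minus strand at chr6:29380514-29380763, before the gene at chr6:29376671-29380513, and the Opn1mw window on the plus strand at chrX:74127216-74127465, before the gene at chrX:74127466-74150756. Both are printed 5′ to 3′ on the gene's strand. Capitals mark the matches, on either strand, to AGGTCA (the half-site of thyroid hormone, retinoid X and related nuclear receptors), TAATCC and TAATCT (letters bound by the photoreceptor factor CRX) and TATAAA (the TATA box).
Opn1sw: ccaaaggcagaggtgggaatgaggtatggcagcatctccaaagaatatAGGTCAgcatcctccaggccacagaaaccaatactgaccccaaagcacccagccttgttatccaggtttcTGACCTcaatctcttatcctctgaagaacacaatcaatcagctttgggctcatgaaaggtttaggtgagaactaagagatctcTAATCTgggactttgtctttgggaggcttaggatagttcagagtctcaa
Opn1mw: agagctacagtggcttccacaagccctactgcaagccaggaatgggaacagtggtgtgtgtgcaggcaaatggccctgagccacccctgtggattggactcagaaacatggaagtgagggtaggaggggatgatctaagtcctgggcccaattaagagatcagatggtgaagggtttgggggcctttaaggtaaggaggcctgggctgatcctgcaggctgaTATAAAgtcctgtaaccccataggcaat
AGGTCA was found 2 times in the Opn1sw window, beginning 202 bases before the start and, as its reverse complement TGACCT, 132 bases before it, and 0 times in the Opn1mw window. Of the 32851 mouse windows of this length, 14.0% held that motif on either strand. TAATCT stood 49 bases before the start of Opn1sw and in 7.31% of all windows, TAATCC in neither opsin window and in 6.25% of all windows, and TATAAA 28 bases before the start of Opn1mw and in 12.4% of all windows. A match is a run of letters, not a shown binding site.

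Both opsins were sparse. Opn1sw had 4090 puncta, or 31.1 per 1000 cells, and was detected in 2.48% of outlines (95% exact binomial interval 2.39 to 2.56). Opn1mw had 11265 puncta, or 85.7 per 1000 cells, and was detected in 6.86% of outlines (6.72 to 6.99). Intervals here and below cover counting error only. By number of puncta they ranked 277 and 254 of 300 genes. Probe numbers per gene are not given in the sources used here, so the 2 opsins are not compared with each other in level, and only the share of Opn1sw in the puncta of both is compared between places. Over all cells that share was 26.6% (25.9 to 27.3). For comparison, Gngt1, the gamma subunit of rod transducin, was detected in 39.5% of the same outlines, and Rbpms, an RNA-binding protein that marks RGCs, in 94.8%. The median outline held 304 puncta of all genes.

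The retinas differed in overall opsin level. Opn1sw had 21.3, 25.2, 46.1, 34.5 and 51.9 puncta per 1000 cells in retinas 1 to 5. Opn1mw had 80.3, 70.6, 114, 85.6 and 117 puncta per 1000 cells in the same order. In both genes retinas 3 and 5 were the highest, with counting intervals that overlap each other and lie above those of the other 3. The Opn1sw share was 20.9% in retina 1, lower than in the others, and 26.3%, 28.8%, 28.8% and 30.8% in retinas 2 to 5. The rod list moved the same way. Its 6 genes on the panel (Gnat1, Gngt1, Pde6g, Nrl, Cnga1 and Cngb1, the rod transducin, phosphodiesterase, transcription factor and channel genes) summed to 1385, 1350, 2861, 2044 and 2351 puncta per 1000 cells, with retinas 3 and 5 again the highest. The part of this difference in the opsin levels was not tested.

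Along Y, the Opn1sw share was lower at Y above 0 in retinas 1, 2 and 4, about equal in retina 3 and higher in retina 5. In retina 1 Opn1sw made up 15.0% of the opsin puncta at Y above 0 (95% exact binomial interval 13.2 to 16.9) and 25.0% at Y at or below 0 (23.2 to 26.9). Retina 2 had 18.6% at Y above 0 (16.9 to 20.5) and 32.9% at Y at or below 0 (30.9 to 35.0). Retina 4 had 22.6% at Y above 0 (20.5 to 24.9) and 33.4% at Y at or below 0 (31.2 to 35.5). These 3 retinas had intervals that did not meet. Retina 3 had 28.7% and 28.8% on the same sides. Retina 5 ran the other way, with 33.7% at Y above 0 (31.5 to 35.9) and 22.6% at Y at or below 0 (19.4 to 26.1). Its intervals did not meet either. The difference in log2(Opn1sw/Opn1mw), Y above 0 minus Y at or below 0, was -0.92, -1.10, -0.00, -0.77 and 0.80 in retinas 1 to 5, with a mean of -0.40 ± 0.79 (SD, n = 5). Flipping the signs of the 5 differences in all ways (an exact permutation test, two-sided) gave p = 0.312, where 0.062 is the smallest p that 5 retinas allow.

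The levels of the 2 genes along Y had the same direction in retinas 1, 3 and 5 and opposite directions in retinas 2 and 4. Opn1sw had 11.9, 19.1, 49.7, 27.9 and 68.8 puncta per 1000 cells at Y above 0 in retinas 1 to 5, against 31.4, 29.8, 41.6, 39.4 and 25.4 at Y at or below 0. It was lower at Y above 0 in 3 retinas and higher in 2, and the sides overlapped. Opn1mw had 67.6, 83.5, 123, 95.3 and 135 puncta per 1000 cells at Y above 0, against 94.0, 60.8, 103, 78.6 and 87.0 at Y at or below 0. It was higher at Y above 0 in 4 of 5 retinas, retina 1 being the exception, and these sides overlapped too. In edgeR's quasi-likelihood test with the retina as a block, the log2 fold change of Y above 0 over Y at or below 0 was -0.20 ± 0.40 (SE) for Opn1sw (edgeR adjusted p = 0.827) and 0.22 ± 0.18 for Opn1mw (edgeR adjusted p = 0.590). Opn1mw had 0.42 without retina 1 and 0.07 without the opsin-rich outlines defined below, neither called. Along this axis edgeR called 0 of the 300 genes (0.00%), with 31 at an unadjusted p under 0.05, and DESeq2 called 6 (2.00%), neither opsin among them. With the section within each retina as a block, which counts sections of 1 retina as replicates, Opn1mw was called at 0.44 ± 0.13 (edgeR adjusted p = 0.013) and Opn1sw was not at -0.46 ± 0.19 (edgeR adjusted p = 0.096), where 15.3% of all genes were called and 7.33% called higher. With the slide within each retina as a block, 0 of the 300 genes were called. Opn1mw then had 0.12 ± 0.11 (edgeR adjusted p = 0.684) and Opn1sw -0.46 ± 0.31 (edgeR adjusted p = 0.515). No rod-list gene was called along Y with the retina or the section as a block. The median of the 6 was 0.16 on the log2 scale with the retina as a block, against -0.00 over all 300 genes. The rod list as a sum differed by -0.78, 0.37, 0.31, 0.02 and 0.70 on the log2 scale in retinas 1 to 5, with the same sign as Opn1mw in every retina, and its part in the opsin differences was not tested. Isl2, a LIM homeodomain gene of RGCs and the 1 gene of the retinal position list on the panel, had a log2 fold change of -0.01 ± 0.03 (edgeR adjusted p = 0.861).

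**Figure D1:**
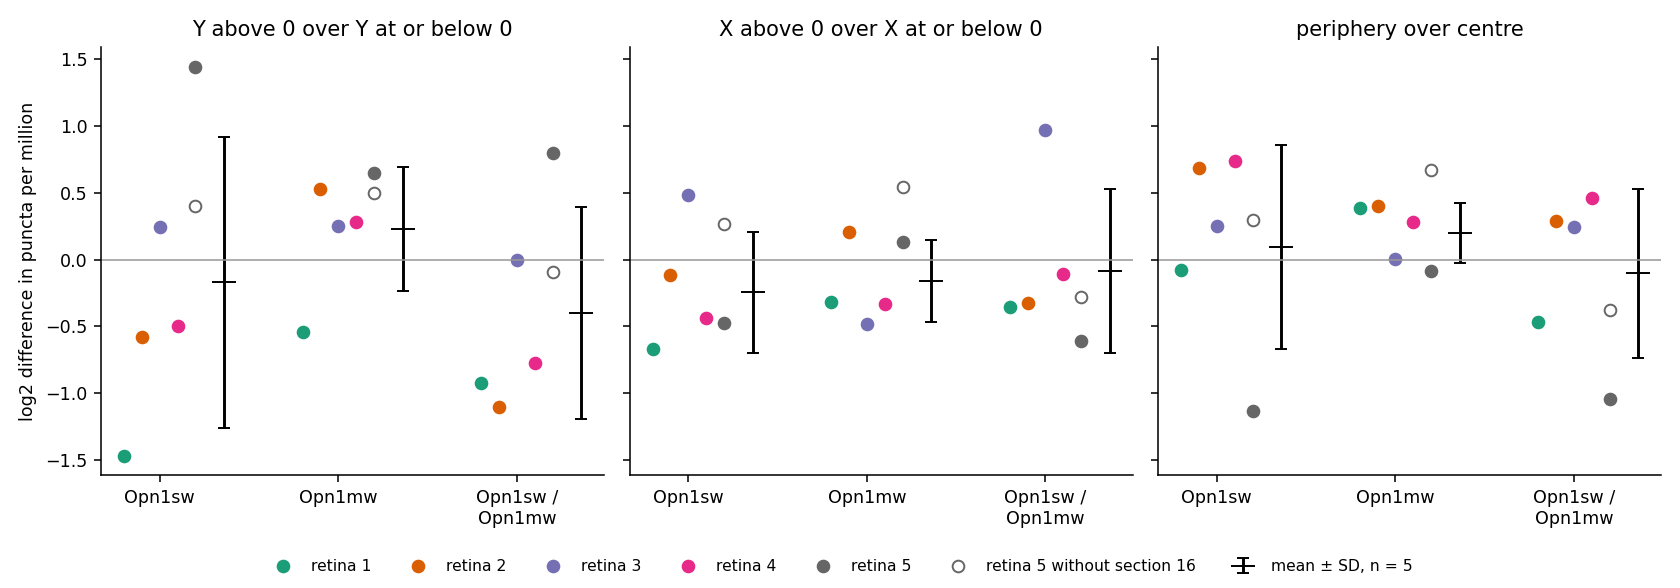
Log2 difference in CPM (vertical axis) of Opn1sw, Opn1mw and their ratio between the 2 sides of Y, of X and of the radius, 1 point per retina, with the mean ± SD of 5 retinas and retina 5 drawn again, open, without its section 16. Along Y the ratio lies at or below 0 in retinas 1 to 4 and at 0.80 in retina 5, which moves to -0.09 without that section.

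The sign of the ratio difference in retina 5 changed without its section 16. It held 4814 of the retina's 14371 cells and 441 of its 746 Opn1sw puncta, at 91.6 Opn1sw and 154 Opn1mw puncta per 1000 cells. Without it, retina 5 had 34.9 Opn1sw puncta per 1000 cells at Y above 0, against 27.7 at Y at or below 0, and 109 Opn1mw puncta per 1000 cells at Y above 0, against 81.5. Its ratio difference then was -0.09 in place of 0.80. Section 15 of the same retina, with 7505 cells, also had the higher Opn1sw share at Y above 0, 29.9% against 22.2% at Y at or below 0, and without opsin-rich outlines the retina's ratio difference was 0.43. Without section 16, and with opsin-rich outlines kept, the mean over the 5 retinas became -0.58 ± 0.50. Then 0 of 5 retinas lay above 0. With all 5 signs alike, the exact sign-flip permutation test can only give its smallest p, 0.062. The section was singled out after its values were seen, and no section of another retina was left out in turn. This p therefore carries no weight for a Y difference. Leaving out retina 5 altogether gave -0.70 ± 0.48 over 4 retinas (exact sign-flip permutation p = 0.12, the smallest that 4 retinas allow).

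Within single sections the direction was the same in retinas 2 and 4. Of 27 sections with at least 100 cells on each side of Y, 21 had a lower Opn1sw share at Y above 0. They were 3 of 5 in retina 1, 9 of 9 in retina 2, 1 of 3 in retina 3, 7 of 7 in retina 4 and 1 of 3 in retina 5. Sections of 1 retina share their tissue, so these counts describe the retinas and carry no p. With sections as strata (a Mantel-Haenszel ratio per retina), the ratio difference was -0.44, -1.18, 0.15, -0.83 and 0.70 in retinas 1 to 5, with a mean of -0.32 ± 0.75 (exact sign-flip permutation p = 0.438).

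By angle, counted from the positive X axis so that 90 degrees lies at Y above 0, the high side of the Opn1sw share was close to 270 degrees in 3 retinas. In a cosine and sine fit over 8 sectors of 45 degrees, the Opn1sw share was highest towards 254, 261, 7, 277 and 116 degrees in retinas 1 to 5. Retinas 1, 2 and 4 pointed to nearly the same side, whereas retinas 3 and 5 pointed elsewhere. The relative amplitude of the share was 0.51, 0.38, 0.31, 0.33 and 0.28. For Opn1sw itself the direction was 249, 267, 36, 246 and 99 degrees, with a relative amplitude of 0.95, 0.28, 0.31, 0.25 and 0.88, which ranked 2, 16, 15, 29 and 11 among the amplitudes of the 300 genes. For Opn1mw it was 247, 67, 154, 128 and 78 degrees, with amplitudes of 0.42, 0.27, 0.25, 0.33 and 0.47 and ranks of 21, 20, 26, 15 and 37. The ranks are not corrected for counting error, which is larger for sparse genes. In retinas 2, 3 and 4 the 2 opsins pointed to sides more than 90 degrees apart, and in retinas 1 and 5 to nearly the same side. Without the opsin-rich outlines defined below, the amplitudes in retina 5 were 0.36 for Opn1sw and 0.17 for Opn1mw, with ranks of 40 and 87, and those of Opn1sw in retinas 1 to 4 were 0.96, 0.21, 0.29 and 0.26. The opsins of retina 3 were then under 90 degrees apart, at 46 degrees for Opn1sw and 129 degrees for Opn1mw. Those of retina 5 no longer pointed to nearly the same side, at 116 degrees for Opn1sw and 32 degrees for Opn1mw. In retina 2 they stayed more than 90 degrees apart but came closer, at 214 and 116 degrees, with a rank of 55 for Opn1mw.

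The sectors show the size of these differences. In retina 1 Opn1sw had 49.0 puncta per 1000 cells between 225 and 270 degrees and 4.19 between 45 and 90 degrees, an 11.7-fold difference, and Opn1mw was highest and lowest in the same 2 sectors at 127 and 56.3. In retina 2 Opn1sw was highest at 35.0 between 270 and 315 degrees, the sector where Opn1mw was lowest at 54.6, and lowest at 16.1 between 45 and 90 degrees, where Opn1mw was highest at 96.0. In these 2 sectors of retina 2 the Opn1sw share was 39.1% and 14.4%. Retina 4 had a share of 38.4% between 225 and 270 degrees, where Opn1mw was lowest at 69.9, and of 15.1% between 90 and 135 degrees, where Opn1mw was highest at 149. Retina 3 had its highest share, 45.5%, between 315 and 360 degrees and its lowest, 17.2%, between 225 and 270 degrees. Retina 5 had the highest sector of any retina, 211 Opn1sw and 296 Opn1mw puncta per 1000 cells between 90 and 135 degrees. Sectors held 252 to 6761 cells. A linear gradient of the share over X and Y within sections had its high side at 267, 272, 4, 283 and 166 degrees in retinas 1 to 5, and a size of 0.62, 1.39, 1.58, 1.17 and 0.83 in log2 odds per unit of the circle's radius.

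**Figure D2:**
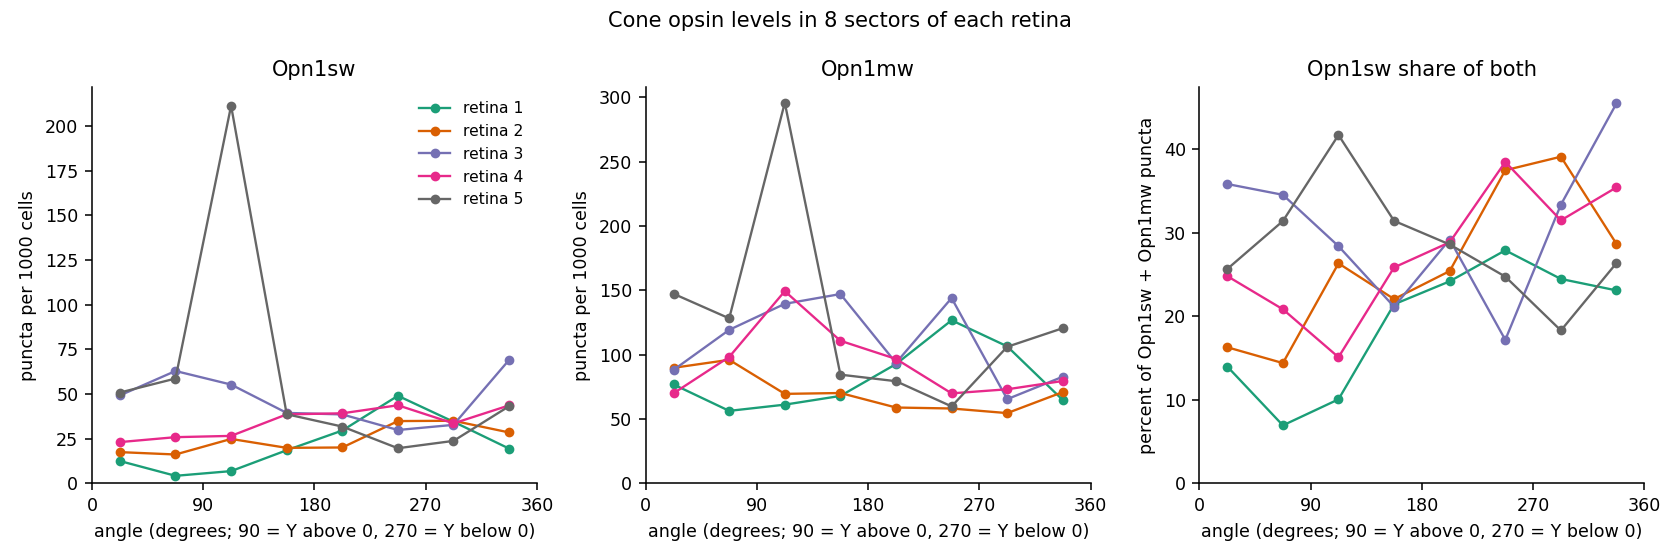
Puncta per 1000 cells of Opn1sw and of Opn1mw, and the percent of Opn1sw among the puncta of both (vertical axes), in 8 sectors of each retina by the angle of the sector's middle in degrees (horizontal axis), 1 line per retina. The share peaks near 270 degrees in retinas 1, 2 and 4, and retina 5 has a single sector at 211 Opn1sw and 296 Opn1mw puncta per 1000 cells.

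Along X, neither opsin differed beyond the spread between retinas. The log2 fold change of X above 0 over X at or below 0 was -0.25 ± 0.15 for Opn1sw (edgeR adjusted p = 0.330) and -0.15 ± 0.11 for Opn1mw (edgeR adjusted p = 0.393), where edgeR called 30 of the 300 genes (10.0%). With each retina left out Opn1sw ran from -0.41 to -0.14 and Opn1mw from -0.25 to -0.07, and the lowest Opn1sw value, without retina 3, had an edgeR adjusted p of 0.064. Opn1sw had 17.8, 24.9, 54.9, 30 and 44.4 puncta per 1000 cells at X above 0 in retinas 1 to 5, against 25.3, 25.7, 40.0, 39.5 and 58.9 at X at or below 0. It was lower at X above 0 in every retina but retina 3. Opn1mw had 76.4, 76.4, 91.4, 77.4 and 125 at X above 0, against 84.8, 63.1, 130, 94.6 and 109 at X at or below 0. In retina 3 the Opn1sw share was 37.5% at X above 0 (34.1 to 41.0) and 23.5% at X at or below 0 (21.2 to 25.9), a difference in log2(Opn1sw/Opn1mw) of 0.97. The other 4 retinas lay between -0.61 and -0.11, and the mean of all 5 was -0.08 ± 0.61 (exact sign-flip permutation p = 0.812). The retina without a Y difference in the share was thus the one with the largest X difference of these 5.

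From centre to periphery, with the scaled radius split at 0.5, each opsin was higher per cell in the periphery of 3 retinas, and neither differed beyond the spread between retinas. Opn1mw had 84.0, 77.8, 111, 92.9 and 115 puncta per 1000 cells in the periphery of retinas 1 to 5, against 68.5, 57.3, 118, 71.3 and 118 in the centre. Opn1sw had 20.6, 29.3, 48.6, 40.6 and 32.4 in the periphery, against 23.2, 17.7, 43.7, 22.7 and 67.9 in the centre. The log2 fold change of periphery over centre was 0.18 ± 0.10 for Opn1mw (edgeR adjusted p = 0.264) and 0.09 ± 0.26 for Opn1sw (edgeR adjusted p = 0.836), where edgeR called 20 of the 300 genes (6.67%). Retina 5 again differed for Opn1sw, at -1.13 on the log2 scale, against -0.08, 0.69, 0.25 and 0.74 in retinas 1 to 4. Without its section 16 the fold changes were 0.38 ± 0.14 for Opn1sw (edgeR adjusted p = 0.143) and 0.34 ± 0.10 for Opn1mw (edgeR adjusted p = 0.082). For Opn1mw the fold change was 0.45 ± 0.13 without cells near the split (edgeR adjusted p = 0.117) and 0.24 ± 0.08 without opsin-rich outlines (edgeR adjusted p = 0.105), with 5 of 5 retinas above 0 in both, and Opn1sw had 0.19 and 0.26 in these fits. Of the 6 rod-list genes, 1 was called, Gngt1 at 0.32 ± 0.06 (edgeR adjusted p = 0.035), where 3.33% of all genes were called higher, but it had -0.05 with sections as a block, and the median of the list was 0.30, against 0.01 over all 300 genes. The ratio of the opsins differed by -0.10 ± 0.63 between periphery and centre (exact sign-flip permutation p = 0.75).

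In 5 rings with edges at 0.25, 0.5, 0.75 and 1 of the scaled radius, the outermost ring was the highest in both genes with all retinas pooled. From the innermost to the outermost ring, Opn1mw had 82.2, 80.6, 80.8, 95.6 and 127 puncta per 1000 cells. Opn1sw had 41.9, 28.4, 26.4, 34.8 and 52.5. The rings hold the retinas in unequal shares, and retina 5 had 2689 of the 12218 innermost cells and 4 of the 4207 outermost ones. Without retina 5 the innermost Opn1sw value was 30.4. Within retinas 1, 2 and 4, the outermost ring had the highest Opn1sw level, at 39.0, 68.6 and 60.5, and retina 3 had 86.4 there in 81 cells. For Opn1mw the outermost ring was the highest in retinas 1 and 2, at 134 and 145, but not in retina 4, at 105 against 113 in the ring before it, nor in retina 3, at 24.7.

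The Y difference was also compared between periphery and centre. For Opn1sw, the periphery's difference minus the centre's was below 0 in all 5 retinas, at -0.64, -0.23, -0.33, -1.46 and -2.96 on the log2 scale. Its mean difference of differences was -1.13 ± 0.43 (SE) in limma, with a limma adjusted p of 0.333 and an unadjusted p of 0.043. For Opn1mw it was -0.29 ± 0.35 (limma adjusted p = 0.677). limma called 0 of the 300 genes (0.00%) in this comparison, with 44 at an unadjusted p under 0.05. No other tool was run on it. The Opn1sw value was -0.67 ± 0.22 without retina 5, -0.69 ± 0.17 without opsin-rich outlines (defined below) and -0.22 ± 0.28 with the radius split at 0.7, none of them called.

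Opsin levels varied widely between sections, small sections included. Over 41 sections Opn1sw ran from 5.35 to 246 puncta per 1000 cells with a median of 40.1, and Opn1mw from 0 to 338 with a median of 104. Opn1mw was not detected in 2 small sections, section 3 of retina 1 with 19 cells and section 14 of retina 3 with 49 cells, where a count of 0 allows up to 158 and 61.2 puncta per 1000 cells. In the 30 sections with at least 500 cells, Opn1sw ran from 5.35 to 127, Opn1mw from 54.0 to 194 and the Opn1sw share from 9.01% to 46.0%. Sections with few cells had the highest levels. In the 11 sections under 500 cells the medians were 77.9 Opn1sw and 179 Opn1mw puncta per 1000 cells, against 34.6 and 89.0 in the larger sections.

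Across sections the opsins followed the rod genes. In the 30 larger sections the Spearman correlation with the rod list was 0.92 for Opn1sw and 0.91 for Opn1mw, between the opsins it was 0.87, and with the number of cells of the section it was -0.67 for Opn1sw and -0.74 for Opn1mw. Sections of 1 retina share tissue and slide, and all levels share the section's cells, so these are descriptions. Over all 41 sections the correlations with the rod list were 0.91 and 0.83. These values pool the retinas. Within single retinas the lowest correlation was 0.10 for Opn1sw and 0.44 for Opn1mw over all sections, and 0.50 and 0.68 in the larger ones. Each of the 6 rod-list genes followed Opn1sw at 0.85 to 0.94 and Opn1mw at 0.85 to 0.90. Gngt2, the gamma subunit of cone transducin and the only other gene of the cone list on the panel, was much sparser at 6.16 puncta per 1000 cells and followed them at 0.58 each. The Opn1sw share followed the rod list less closely, at 0.38.

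**Figure D3:**
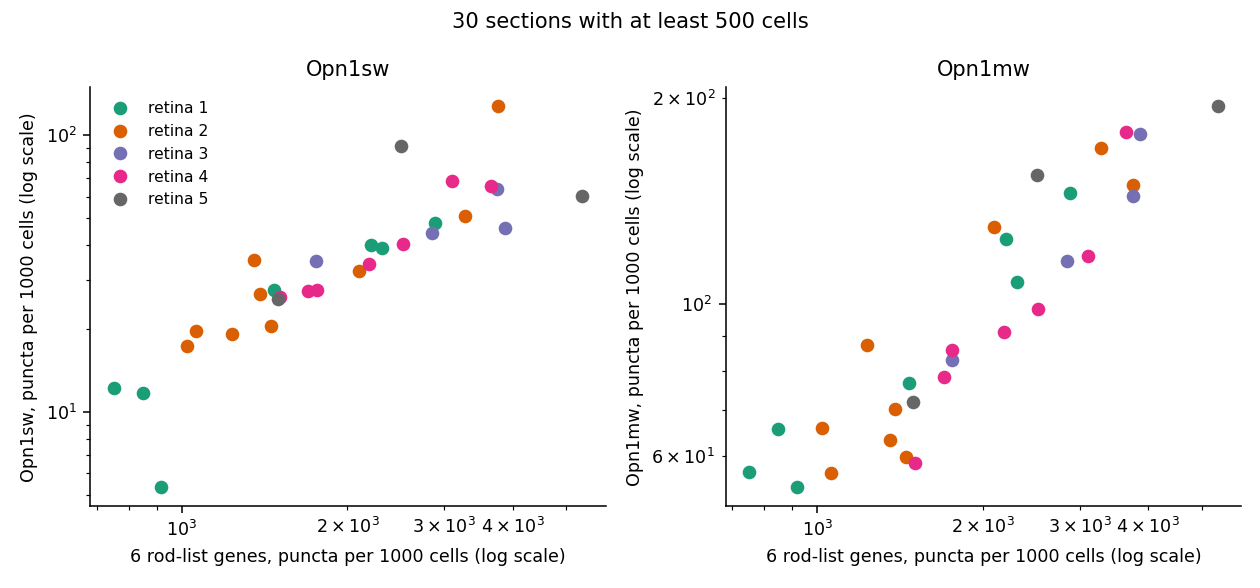
Puncta per 1000 cells of Opn1sw and of Opn1mw (vertical axes, log scale) against the summed puncta per 1000 cells of the 6 rod-list genes (horizontal axis, log scale) in the 30 sections with at least 500 cells, 1 point per section, coloured by retina. With the sections of all retinas pooled, both opsins run with the rod genes, at Spearman correlations of 0.92 and 0.91.

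By the rule for likeness, the genes closest to the opsins in position included 3 of the 6 rod-list genes for Opn1sw and 4 for Opn1mw. Over 8 sectors in 5 retinas (40 points, log2 CPM, which scales to the total puncta, centred on each retina), Opn1sw was most like Cnga1 (Pearson r 0.74), the rod cyclic nucleotide-gated channel, A930003A15Rik (0.73), Pde6g (0.71), a subunit of rod phosphodiesterase, Gngt1 (0.70) and Guca1b (0.69), a guanylate cyclase activator of photoreceptors. It was least like Hpcal1 (-0.68), a neuronal calcium sensor, Irx3 (-0.67), an Iroquois transcription factor, and Gabrb1 (-0.64), a GABA-A receptor subunit. Opn1mw was most like Nrl (0.85), the transcription factor of rods, Pde6g (0.80), Guca1b (0.80), Gnat1 (0.79), the alpha subunit of rod transducin, and Cngb1 (0.78), the other rod channel subunit. It was least like Pou4f3 (-0.62), a POU transcription factor of RGCs, Kcnab2 (-0.61), a potassium channel subunit, and Prph (-0.51), the filament protein peripherin. The opsins correlated with each other at 0.55, rank 16 for Opn1sw and rank 12 for Opn1mw among all genes. Points share libraries and depth.

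A small number of outlines held many opsin puncta. Of outlines with Opn1sw 90.7% had 1 punctum of it, and of outlines with Opn1mw 88.6%, while the highest counts were 30 and 43. Outlines with at least 5 puncta of either opsin, a threshold chosen after the values were seen and called opsin-rich below, numbered 106, or 0.0807% of all. They held 15.1% of the Opn1sw and 11.5% of the Opn1mw puncta. Since opsin counts picked these outlines, every comparison without them starts from lower opsin levels by construction. Taking out the highest counts can lower the spread as well. The SEs, p-values and calls without these outlines are therefore only descriptions. There were 5, 37, 16, 15 and 33 of them in retinas 1 to 5, from 28 sections, and 25 lay in section 16 of retina 5. Outlines with exactly 4 puncta of either opsin, just below the threshold, numbered 37 and had a mean of 6.11 Rbpms puncta. Those with exactly 5 numbered 15 and had 5.67. The 68 with at least 10 had 0.485.

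These outlines carried few RGC marker puncta. The opsin-rich outlines had a mean of 1.83 puncta of Rbpms and 3.89 of Slc17a6, the vesicular glutamate transporter of RGCs, against 6.61 and 11.4 in the 119540 outlines without either opsin. Rbpms was detected in 38.7% of the opsin-rich outlines and in 94.9% of those without opsin. Photoreceptor genes ran the other way. Opsin-rich outlines had a mean of 19.1 puncta of Pde6g, 13.4 of Cngb1 and 10.8 of Nrl, against 0.384, 0.0891 and 0.0862 in outlines without opsin. The 6 rod-list genes made up 16.2% of the puncta in opsin-rich outlines, against 0.50% in outlines without opsin, the 6 RGC-list genes 2.22% against 8.19%, and the 13 bipolar-list genes 4.18% against 1.00%. Guca1b and Rpgrip1, a protein of the photoreceptor cilium, had means of 29.1 and 20.8 in opsin-rich outlines, against 0.296 and 0.141, and Rpgrip1 was chosen after its values were seen. The median volume was 1165 in opsin-rich outlines, against 582 in those without opsin, in a unit the labels do not state. Outlines with 1 to 4 puncta, which held most opsin puncta, had 7.11 Rbpms puncta, near the value without opsin, and 2.99 rod-list puncta, against 1.59.

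Opsin-rich outlines differed in which opsin they held. At least 5 puncta of both were found in 35, at least 5 of Opn1sw but not of Opn1mw in 18 and at least 5 of Opn1mw but not of Opn1sw in 53, and 39 had no Opn1sw punctum. In retina 2 Opn1sw made up 4.69% of the opsin puncta of 21 outlines at Y above 0 and 50.9% in 16 outlines at Y at or below 0, and 16 of those 21 had no Opn1sw punctum, against 1 of those 16. In retina 4 it was 20.3% in 11 outlines at Y above 0 and 95.7% in 4 at Y at or below 0, and in retina 1 17.1% in 3 and 80.0% in 2. In retina 3 it was 21.9% and 27.7% in 8 outlines each. In retina 5 it was 43.0% in 29 outlines at Y above 0 and 22.0% in 4 at Y at or below 0. These outlines are part of the shares given above for all outlines. Without them the Opn1sw share was 14.9%, 22.4%, 29.6%, 22.9% and 28.3% at Y above 0 in retinas 1 to 5, against 24.5%, 29.7%, 29.0%, 32.6% and 22.7% at Y at or below 0, and the ratio difference along Y was -0.34 ± 0.55 (exact sign-flip permutation p = 0.25).

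**Figure D4:**
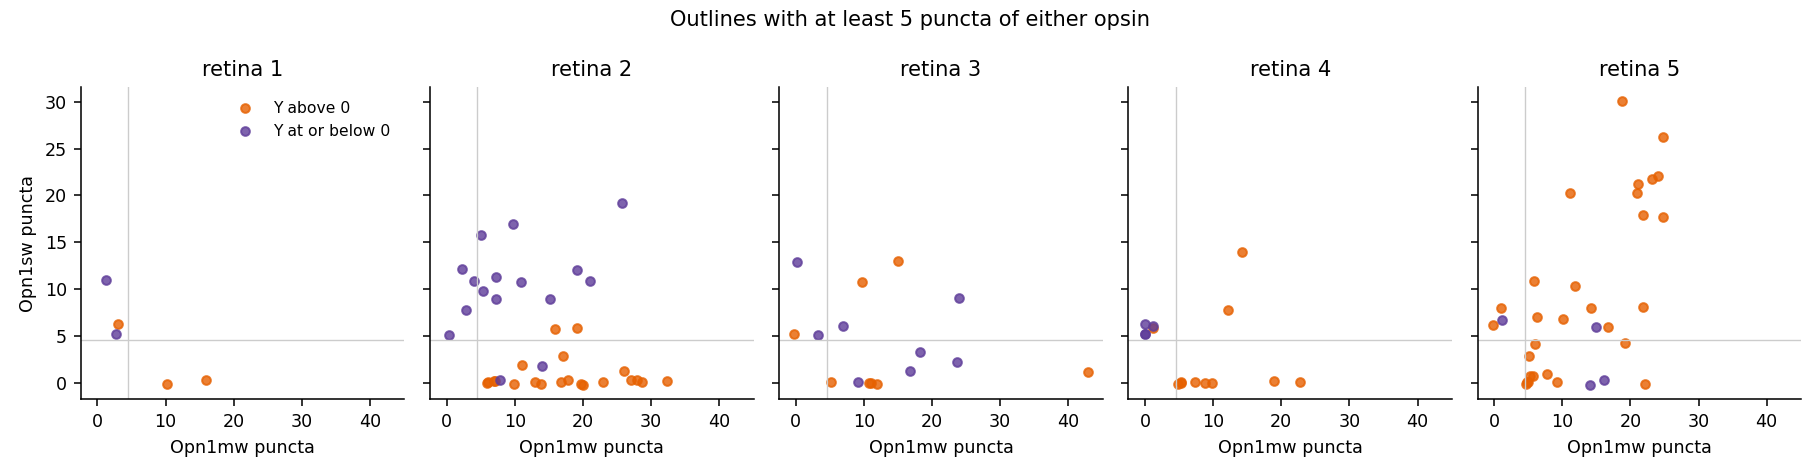
Opn1sw puncta (vertical axis) against Opn1mw puncta (horizontal axis) of the 106 outlines with at least 5 puncta of either opsin, 1 panel per retina and 1 point per outline, coloured by the side of Y; points are moved at random by under 0.5 puncta to separate ties, and grey lines lie between 4 and 5 puncta. In retina 2 most of the 21 outlines at Y above 0 lie on the line of no Opn1sw, and 1 of the 16 at Y at or below 0 does.

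Among the 45 types, the opsin levels were highest in 05_J-RGC, but not without the opsin-rich outlines. Opn1sw averaged 147 ± 213 puncta per 1000 cells in 05_J-RGC (SD, n = 5), against 31.7 ± 10.2 in the rest, and Opn1mw 250 ± 240 against 87.6 ± 16.6. By retina Opn1sw had 20.0, 100, 43.8, 45.9 and 523 puncta per 1000 cells in 05_J-RGC, and Opn1mw 68.4, 184, 215, 117 and 668. Retina 5 was far above the others in both genes. The type was above the rest in 3 of 5 retinas for Opn1sw and in 4 of 5 for Opn1mw. In edgeR's quasi-likelihood test, which set each type against the average of the remaining types, the log2 fold change was 2.10 ± 0.16 for Opn1sw and 1.46 ± 0.13 for Opn1mw, both called, where 69.0% of 13455 type-gene pairs were called. Without section 16 of retina 5 the values were 0.96 ± 0.16 and 0.78 ± 0.12, and without the whole of retina 5 they were 1.11 and 0.91, still called. The fit takes the dispersion of a gene from all types together. The SEs and calls of a type therefore do not measure its own spread between retinas. Of the 4610 cells of this type 40 were opsin-rich outlines, which held 77.7% of its Opn1sw and 67.2% of its Opn1mw puncta, with a mean of 0.350 Rbpms puncta, against 7.43 in its other cells. Without opsin-rich outlines 05_J-RGC averaged 27.7 ± 9.0 Opn1sw and 71.5 ± 17.0 Opn1mw puncta per 1000 cells, below the rest in all 5 retinas for both genes, and neither was called (log2 fold changes 0.01 ± 0.16 and -0.13 ± 0.11). As the outlines were picked by the opsin counts tested, a fall without them was fixed in advance.

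Opn1sw was called in 1 type and Opn1mw in 4. Besides 05_J-RGC, Opn1mw was higher in 03_FminiON at 0.96 ± 0.13 and in 11_Novel at 0.36 ± 0.15, and lower in 27_Novel at -0.57 ± 0.23, where 30.4% of all pairs were called higher and 38.6% lower. In 03_FminiON it had 95.5, 160, 221, 90.8 and 174 puncta per 1000 cells in retinas 1 to 5, above the rest in every retina. This type held 23 opsin-rich outlines, which carried 41.4% of its Opn1mw puncta, and 18 of the 23 reached 5 puncta for Opn1mw but not for Opn1sw. Without them it had 89.2, 55.3, 87.9, 87.6 and 88.0, and the log2 fold change was 0.23 ± 0.10. Opn1mw in 11_Novel averaged 113 ± 28.9 and in 27_Novel 69.9 ± 23.7 puncta per 1000 cells. The 11_Novel call was lost without retina 2, 3 or 4, at log2 fold changes of 0.37, 0.29 and 0.30 (edgeR adjusted p of 0.056, 0.148 and 0.131). The 27_Novel call was lost without retina 1, 3 or 4, at -0.49, -0.57 and -0.54 (edgeR adjusted p of 0.079, 0.056 and 0.055). The log2 fold changes stayed near those with all retinas. Scaling by library totals in place of TMM called 6 types for Opn1mw, 03_FminiON, 05_J-RGC, 11_Novel and 32_F_Novel higher and 24_Novel and 43_AlphaONS lower, and lost 27_Novel. The share of all pairs called with library totals was not counted. Without opsin-rich outlines, where 69.3% of all pairs were called, 7 types were called for Opn1mw, 03_FminiON, 11_Novel, 34_Novel, 42_AlphaOFFS and 43_AlphaONS higher and 12_ooDS_NT and 27_Novel lower. The direction of 43_AlphaONS differed between the scalings. With TMM it was 0.23 with all outlines, not called, and 0.34 without opsin-rich outlines, of which this type held 0. With library totals and all outlines it was -0.42. For Opn1sw 4 were called without opsin-rich outlines, 01_W3D1.1, 07_Novel and 33_M1 higher and 29_Novel lower, all between -0.95 and 0.54 on the log2 scale. Leaving out outlines by the counts tested can make SEs and p-values too small. The calls added without them, in either gene, therefore carry no weight of their own. This test scales by all puncta of a type, so a type with few puncta per cell can be higher in CPM and lower per cell.

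From the highest to the lowest mean, none of the 44 neighbouring pairs of types differed by more than the larger of their SDs, in either gene. These SDs include the differences between retinas that all types share, so they are not the error of a difference between types within retinas, which the fit above uses. Opn1sw ran from 147 in 05_J-RGC and 45.7 in 40_M1dup to 10.1 in 35_Novel with a median of 32.8 puncta per 1000 cells, and Opn1mw from 250 in 05_J-RGC and 148 in 03_FminiON to 62.3 in 01_W3D1.1 with a median of 87.2. The share of cells with a punctum was 1.01% in 35_Novel to 3.99% in 40_M1dup for Opn1sw, at a median of 278 and 315 puncta of all genes per cell, and 5.55% in 01_W3D1.1 to 9.85% in 42_AlphaOFFS for Opn1mw, at 188 and 402. As no type of RGC is known to make these genes, no type served as a background below the others. Relative to the level that the position of its cells predicts (retina, section, side of Y and radius), 05_J-RGC had 3.35 ± 3.68 times as much Opn1sw and 2.46 ± 1.91 times as much Opn1mw (SD, n = 5). Over the 45 types, which share all libraries, the genes most like Opn1sw in level were Cnga1 (Pearson r 0.76), Nrl (0.75), Pde6g (0.74), Cngb1 (0.73) and Guca1b (0.73). Those most like Opn1mw were Nrl (0.74), Prcd (0.71), a protein of photoreceptor discs, Opn1sw (0.71), Guca1b (0.70) and Rpgrip1 (0.67). Without opsin-rich outlines the order changed. Opn1sw was then most like Gngt1 (0.83), Ptgds (0.79), a prostaglandin D synthase, Gnat1 (0.79), Mfge8 (0.78) and Dapl1 (0.78), and Opn1mw most like Gngt1 (0.68), Nfix (0.68), a nuclear factor I transcription factor, Rlbp1 (0.67), the retinaldehyde-binding protein of Müller glia, Filip1l (0.66) and Crym (0.65).

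**Figure D5:**
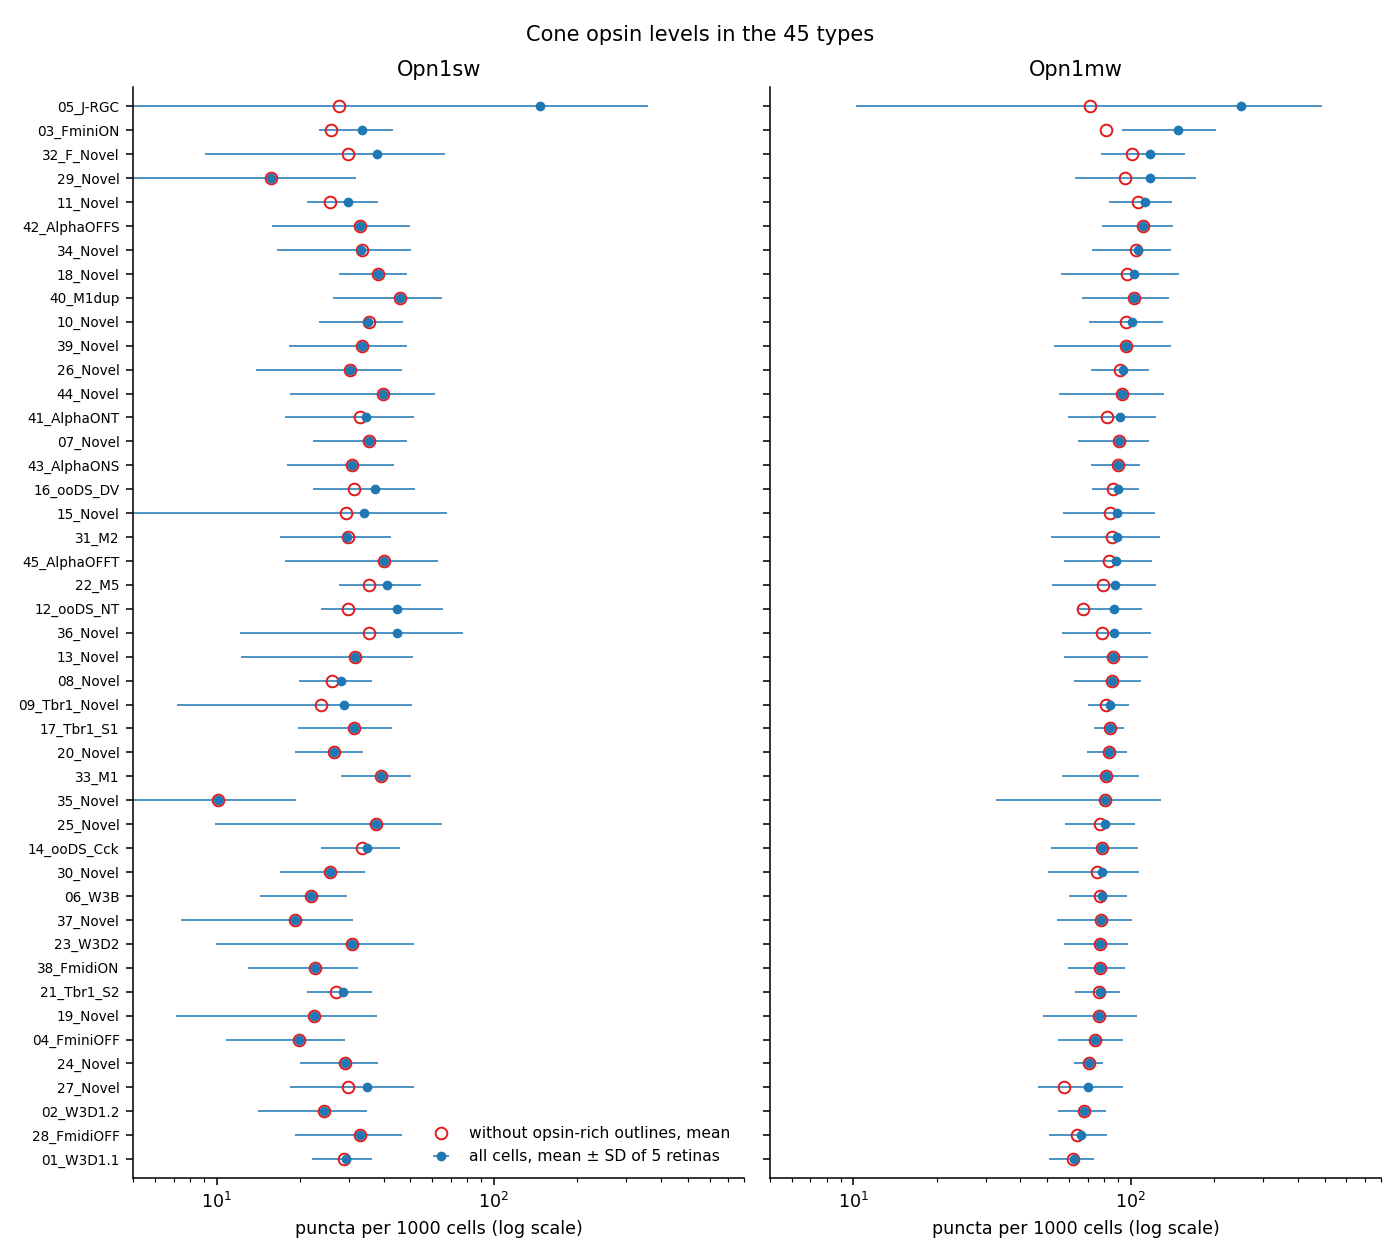
Opn1sw and Opn1mw puncta per 1000 cells (horizontal axes, log scale) in the 45 types (vertical axis, ordered by Opn1mw), as mean ± SD of 5 retinas over all cells (filled) and as the mean without opsin-rich outlines (open); error bars that reach below 5 are cut at the edge. 05_J-RGC stands at 147 and 250 with all cells and at 27.7 and 71.5 without those outlines, among the other types.

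Inside single types the Y difference was tested where at least 50 cells lay on each side in 3 or more retinas. edgeR called Opn1sw in 0 of 26 types, with 2 at an unadjusted p under 0.05, and Opn1mw in 0 of 39 types, with 1, where 0.452% of 11503 type-gene pairs were called. No other tool was run on it. The log2 fold change of Opn1sw was below 0 in 23 of its 26 types with a median of -0.33, and that of Opn1mw above 0 in 24 of its 39 types with a median of 0.11. The types share their retinas, so these counts describe the same tissue again and are no further replicates. They are the direction found for all cells together.

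The opsins were found together in outlines more often than their separate frequencies give. With each cell thinned to 100 puncta, the log2 odds ratio of detecting both was 1.73 ± 0.62 (SD, n = 5), positive in every retina. Thinned cells at Y above 0 had 1.87 ± 0.56 and those at Y at or below 0 had 1.53 ± 0.92. Without opsin-rich outlines it was 0.91 ± 0.77, with 1 retina below 0. In the cells as deposited, 422 held both, or 12.97% of the cells with Opn1sw and 4.68% of those with Opn1mw, and 60 of the 422 were opsin-rich. The levels of both opsins also differed between sections, and the part of that in these odds ratios was not tested.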

How the data were processed

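Per the file headers, the authors deposited raw puncta counts, whole numbers for 300 genes in each cell without normalization, with retina, slide, section, scaled position, volume and type. Segmentation, cell filtering and type assignment are not given in the sources used here. All cells carried the class label RGC and had at least 100 puncta. No doublet caller was run, and 0 cells shared all counts with another. Retinas held 13127 to 41048 cells and 4048481 to 12879454 puncta, with medians of 285 to 326 per cell. Retina 5 shares slides with 2 others.

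Puncta were summed per retina and side, or per type (at least 20 cells), and fitted with edgeR 4.0.16 (quasi-likelihood, TMM, filterByExpr, retina as a block), limma 3.58.1 or DESeq2 1.42.0 in R 4.3.3, tested on simulated data. Benjamini-Hochberg adjustment ran over all genes, or all type-gene pairs, at 0.05. The rest used Python 3.11.15. Likeness followed a rule: the 5 most and 3 least correlated genes over sectors and the 5 most correlated over types. The members, lists and rule were chosen with earlier results of these data known. Opsin-rich outlines, section 16 of retina 5, rod-list scaling and sections as strata were alternatives chosen after seeing the data.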

Additional observations from a re-analysis of the deposited data

Results flagged for a closer look

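Of 31 sets of 5 retina values checked for a single retina far from the rest, 2 were marked. Chance marks about 1 in 20 sets that are independent and not picked by their values. Of the types, only 03_FminiON, 05_J-RGC, 11_Novel, 12_ooDS_NT and 27_Novel were checked, most of them called above, so that rate need not hold. Both marks were in 05_J-RGC and come from the same cells. Opn1sw had 523 puncta per 1000 cells in retina 5, where the nearest retina had 100 and the lowest 20.0. Opn1mw had 668 in retina 5, where the nearest had 215 and the lowest 68.4. Retina 5 held 18 of the 40 opsin-rich outlines of this type in 518 cells, and without section 16 it had 27.3 Opn1sw and 107 Opn1mw puncta per 1000 cells in 366 cells.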

How the results depend on the processing

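Of 252 values recomputed under other settings, 210 counted as the same as the main value. For fits and ratio tests this meant the same direction and the same side of the threshold. For numbers of called types it meant a similar or equal number, and for levels relative to position the same direction. For amplitudes, section correlations and co-detection it meant a move smaller than the SD between retinas. The directions of the angles were not compared. Leaving out the filter changed no opsin value along the axes. As no main value along the axes was called, a like sign and again no call counted as the same there. The count of same values is therefore no measure of robustness. Along Y, Opn1sw had a log2 fold change between -0.57 and 0.11 with each retina left out and 0.0559 with no replicate block, and Opn1mw 0.44, then called, with sections as a block and -0.0157 per rod-list punctum without opsin-rich outlines. Along X, sections as a block gave 0.21 for Opn1sw and 0.12 for Opn1mw, and slides as a block 0.00549 for Opn1sw. Along the radius, Opn1sw had -0.0668 to 0.41 with each retina left out, -0.0369 with no replicate block, -0.0767 with sections as a block, -0.23 per rod-list punctum and -0.0889 per rod-list punctum without opsin-rich outlines, and Opn1mw -0.14 and -0.10 in the last 2. The ratio along X ran from -0.35 to 0.046 with each retina left out, and along the radius from -0.24 to 0.13, with 0.037 for the share of cells with a punctum, 0.0102 without opsin-rich outlines and 0.0306 without section 16 of retina 5. The Y difference by radius of Opn1mw was 0.12 with the radius split at 0.7 and -0.52 to 0.10 with each retina left out.

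Types called for Opn1sw numbered 4 with library totals, 4 without opsin-rich outlines, 2 without section 16 and 1 to 2 with each retina left out. Those for Opn1mw numbered 6 with library totals, 7 without opsin-rich outlines and 2 to 4 with each retina left out (2 without retina 3 and 2 without retina 4). Of all type-gene pairs 69.0% were called in the main fit and 69.3% without opsin-rich outlines. The share was not counted in the other settings. Opn1mw in 05_J-RGC was -0.13 without opsin-rich outlines. Co-detection was 1.02 in cells as deposited, 0.91 thinned without opsin-rich outlines and 0.79 as deposited without them. Genes called numbered 0 to 46 along Y, 0 to 49 along X and 0 to 138 along the radius over all settings. The causes were not tested. Replicate numbers name retinas of 1 group and pair nothing across groups. Each opsin had under 0.1 puncta per cell on average, which limits comparisons in small sections and rare types.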

Other observations

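Genes outside the lists, chosen after their values were seen, were also high in the opsin-rich outlines. Slc17a7, the vesicular glutamate transporter of photoreceptors and bipolar cells, was detected in 98.1% of opsin-rich outlines, against 18.7% of outlines without opsin, at means of 11.4 and 0.385 puncta. Gnb3, the beta subunit of cone and ON bipolar G proteins, had means of 7.28 and 0.143, and Prcd 3.87 and 0.029. The 13 amacrine-list genes made up 1.25% of the puncta in opsin-rich outlines, against 3.67% in outlines without opsin, and the 6 horizontal-list genes 0.527%, against 1.498%. Gngt2 was detected in 8 of the 106 opsin-rich outlines.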
